A study of Mus musculus with 12 samples.

Results

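The genes described here are 10 markers of hepatic stellate cells and myofibroblasts: Lrat, Des, Acta2, Tagln, Hand2, Reln, Ngfr, Dcn, Lum and Ecm1. They were taken by gene symbol from a deposited table of 47069 mouse genes, and each symbol occurred there. All 10 had a mean of at least 0.1 FPKM (fragments per kilobase of transcript, scaled to the mapped fragments of the library) over the 12 libraries, as did 17386 genes in all. PolyA RNA of mouse liver at postnatal day 14 was sequenced in 4 groups of 3 libraries: isolated hepatocytes and snap-frozen whole liver, each in wild type (WT) and in Cdk1 Liv-/-. Cdk1 Liv-/- mice carried floxed alleles of Cdk1, a kinase needed for mitosis, together with Cre expressed from the albumin promoter. That promoter is active in hepatocytes, so the stellate cells followed here through their transcripts were not the intended site of the deletion. The labels name the controls only as wild type and do not say whether they carried floxed alleles or Cre. The methods state that male mice were used. Each genotype effect was asked within a compartment, because the study set out to find how loss of hepatocyte division affects the liver.

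Stellate cells lie between the hepatocytes and the sinusoidal endothelium, where they store retinyl esters and shape the extracellular matrix. In injured liver they can turn into myofibroblasts, which lose their retinoid stores, build contractile fibres and secrete collagen and proteoglycans, and portal fibroblasts and vascular smooth muscle express several of the same genes. In RNA from bulk tissue, fewer cells of a type and less RNA per cell cannot be told apart.

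The labels were checked first. Cdk1 itself measured 27.9, 20.4 and 28.2 FPKM in WT isolated hepatocytes and 9.68, 11.8 and 6.87 in Cdk1 Liv-/- isolated hepatocytes. In whole liver it measured 25.3, 22.7 and 21.5 in WT and 11.7, 12.1 and 14.2 in Cdk1 Liv-/-. The genotypes did not overlap in either compartment, and Cdk1 transcripts were present in every Cdk1 Liv-/- library. These values are of the gene as a whole and do not show which exons the reads covered. Per the paper, Cre removes exon 3, and by qPCR hardly any Cdk1 mRNA was found in Cdk1 Liv-/- hepatocytes of this age. Cdk1 Liv-/- whole liver replicate 3 went against the stated sex: Xist, the RNA of the inactive X chromosome, stood at 158 FPKM there, and the summed level of the Y-linked genes at 0. In the other 11 libraries Xist reached at most 0.14 FPKM and the Y-linked sum lay between 48.4 and 62.1.

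WT isolated hepatocytes replicate 3 stood apart from its group. On the first principal component of all tested genes it scored -8.01, against -74.1 and -75.6 for the other WT hepatocyte libraries and 8.91, 27.9 and 19.3 for WT whole liver. The component placed the Cdk1 Liv-/- hepatocytes at -59.2, -75.4 and -86.9 and the Cdk1 Liv-/- whole livers at 92.0, 132 and 98.9. Tests and counts were also run without either library. The files give no read totals. From the spacing of the lowest FPKM values of single-transcript genes, 1 FPKM stood for between 34.8 and 49.75 reads per kilobase of transcript, depending on the library, with 56.7% to 63.7% of those values within 0.1 of a whole read. At these depths the lowest library of Acta2 held about 17 reads and the highest of Reln about 69220.

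The 10 genes covered a wide range of levels, and Dcn, Ecm1 and Reln, which encode secreted products, led. In WT whole liver Dcn had the highest mean (127 FPKM ± 7.59 SD, n = 3), then Ecm1 (97.0 ± 5.41) and Reln (86.1 ± 6.67), each group of 3 libraries lying wholly above the next. Lum (13.4 ± 1.01), Tagln (12.8 ± 1.56) and Acta2 (12.7 ± 5.12) followed with overlapping libraries, and so did Hand2 (5.69 ± 0.683) and Lrat (5.67 ± 0.386). Ngfr (4.29 ± 0.573) and Des (2.70 ± 0.401) came last. In Cdk1 Liv-/- whole liver Lum (54.1 ± 8.18) stood alone in 4th place, above Tagln (19.3 ± 3.48) and Acta2 (17.7 ± 5.44) and below Reln and Ecm1, which overlapped each other. In the isolated hepatocytes of both genotypes the same 3 genes, Dcn, Ecm1 and Reln, stood at the top. In WT all 3 overlapped each other, and in Cdk1 Liv-/- Reln overlapped both others while every Ecm1 library lay below every Dcn library. Of the other 7 genes, all overlapped their neighbours in WT hepatocytes, and in Cdk1 Liv-/- hepatocytes Lum and Tagln stood above Lrat, which stood above the remaining genes.

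**Figure D1:**
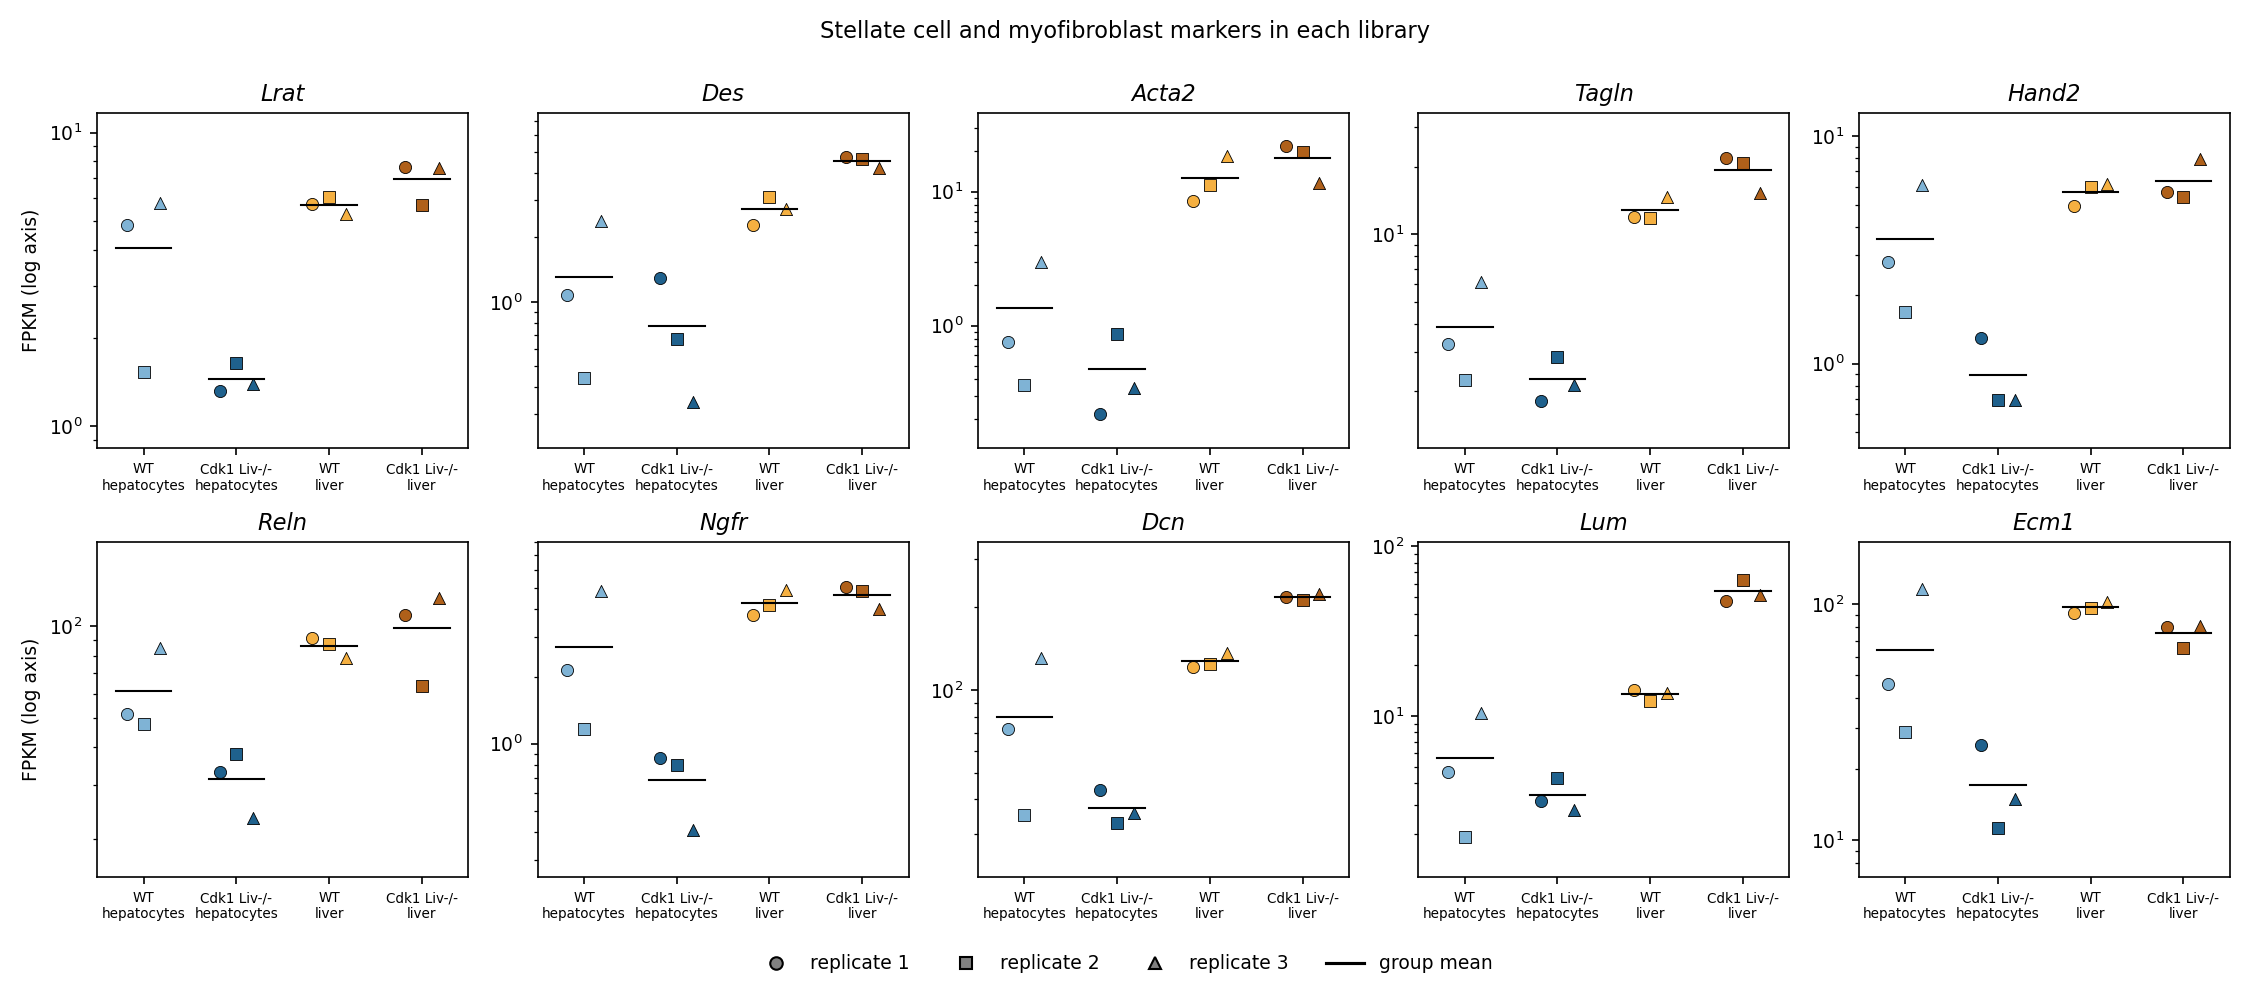
FPKM (log axis) of each of the 10 marker genes in the 12 libraries, by group, with points for libraries, symbols for the replicate number and a line for the group mean. WT isolated hepatocytes replicate 3 is the highest of its group for every gene, and Lum in Cdk1 Liv-/- whole liver (47.5 to 63.3) lies above every other group.

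In whole liver the loss of Cdk1 went with more transcript of the matrix proteoglycans lumican and decorin and the cytoskeletal Des and Tagln. Ecm1 was lower. The cytoskeletal gene Acta2 and the stellate markers Lrat, Hand2, Reln and Ngfr did not pass the test with all libraries. Whether these classes of marker differed from each other was not tested. Lum was 3.92-fold higher, by the mean of log2 FPKM with 0.5 added, from which every fold change of a test is taken. Dcn was 1.71-fold higher, Des 1.58-fold and Tagln 1.48-fold, and Ecm1 was 1.29-fold lower. A gene passed the test when limma gave an adjusted p of at most 0.1 over the 17386 genes, and was called when its log2 fold change was also at least 1 in size; these p-values measure the spread between the sequenced samples. By that rule 1 of the 10 genes was called higher, where 4.59% of all genes were. Passing alone was met by 4 of the 10 upward, where 38.0% of all genes met it, and by 1 downward, where 7.53% did. In 4 of the 10 every Cdk1 Liv-/- library lay above every WT library, as in 43.2% of all genes, and in 1 every library lay below, as in 8.94%. The upward shares by adjusted p alone and by overlap were thus near those of all genes. The median log2 fold change was 0.38 over the 10 genes and 0.18 over all genes tested.

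Among the matrix genes, Lum encodes lumican, a small leucine-rich keratan sulfate proteoglycan that binds collagen fibrils. It measured 14.2, 12.3 and 13.6 FPKM in WT whole liver and 47.5, 63.3 and 51.6 in Cdk1 Liv-/- whole liver. The lowest Cdk1 Liv-/- library was thus far above the highest WT library. Its log2 fold change was 1.97 (SE 0.12, adjusted p = 0.000519), and it was called under all 16 alternatives run, with adjusted p between 0.000206 and 0.0138. Dcn encodes decorin, a related proteoglycan that binds collagen and transforming growth factor beta. It measured 121, 125 and 136 FPKM in WT and 217, 213 and 224 in Cdk1 Liv-/- whole liver, with no overlap. Its log2 fold change was 0.77 (SE 0.060, adjusted p = 0.00112). Ecm1 encodes a secreted matrix protein that stellate cells express. It measured 92.0, 96.3 and 103 FPKM in WT and 80.1, 65.4 and 80.9 in Cdk1 Liv-/- whole liver, so all 3 Cdk1 Liv-/- libraries were low. Ecm1 had a log2 fold change of -0.37 (SE 0.10, adjusted p = 0.0357), the opposite direction to Dcn and Lum.

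In 1 fit over all 12 libraries Dcn no longer passed (adjusted p = 0.124, within a range of 0.000637 to 0.124 over its alternatives), nor did Ecm1 (0.555, range 0.0174 to 0.555). Ecm1 also missed the threshold without WT whole liver replicate 3 (0.103). Without Cdk1 Liv-/- whole liver replicate 3, the library with Xist, the log2 fold changes were 2.00 for Lum (adjusted p = 0.00487), 0.76 for Dcn (0.00799) and -0.42 for Ecm1 (0.0548). That omission left 1 of the 10 genes called, where 4.83% of all genes were called higher.

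Within a library, the ratio of Lum to Dcn does not depend on scaling. It lay between 0.0984 and 0.117 in WT whole liver and between 0.219 and 0.297 in Cdk1 Liv-/- whole liver. The groups did not overlap, so Lum gained on Dcn in every Cdk1 Liv-/- liver. Ecm1 to Dcn moved the other way, from 0.756 to 0.773 in WT to between 0.307 and 0.369 in Cdk1 Liv-/- whole liver. Reln to Dcn was 0.580 to 0.756 in WT and 0.298 to 0.554 in Cdk1 Liv-/-, again without overlap.

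**Figure D2:**
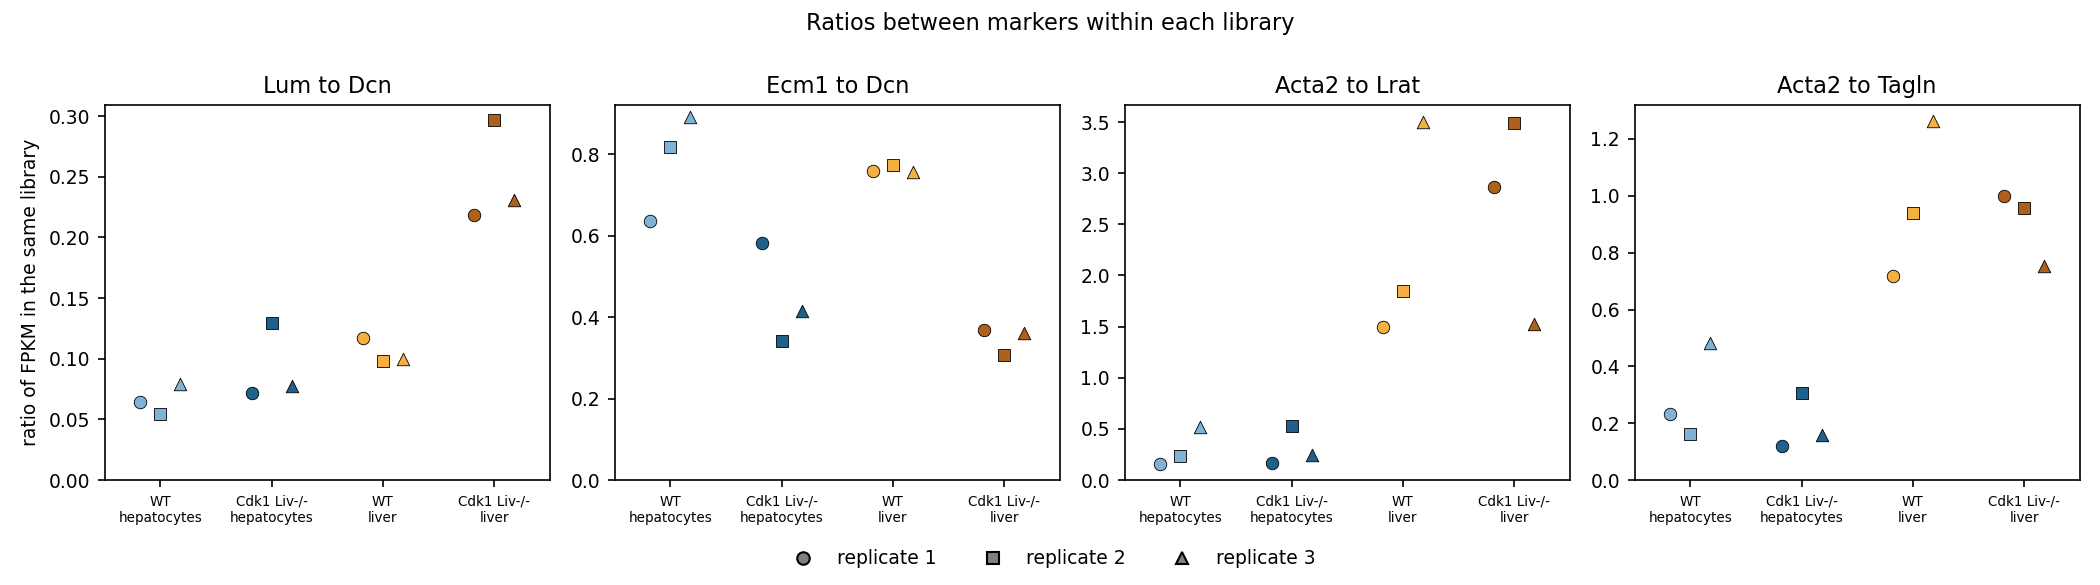
Ratio of FPKM values within each library (vertical axes from 0, no unit) for Lum to Dcn, Ecm1 to Dcn, Acta2 to Lrat and Acta2 to Tagln, by group, with a point for each library. In whole liver the genotypes are separate for Lum to Dcn (0.0984 to 0.117 against 0.219 to 0.297) and Ecm1 to Dcn, and overlap for Acta2 to Lrat and Acta2 to Tagln.

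Dcn, Lum, Kera and Epyc, 4 genes of the same proteoglycan family, lie side by side on mouse chromosome 10. On GRCm38.p6, Dcn (ENSMUSG00000019929) spans chr10:97479500-97518163 and Lum (ENSMUSG00000036446) chr10:97565501-97572703, 47337 bases apart. Kera starts 34258 bases beyond Lum, and Epyc 30379 bases beyond Kera. Kera and Epyc were listed at 0 in all 12 libraries. Of the 11 small leucine-rich proteoglycans listed, 9 were tested. In whole liver 4 passed upward, where 38.0% of all genes did, and 2 downward, where 7.53% did. Of the 9 tested 1 was called (Lum), and their median log2 fold change was 0.13, against 0.18 over all genes. Fmod (fibromodulin) rose by 1.00 (adjusted p = 0.00312), just under the fold threshold, and Podn (podocan) and Ogn fell, at -0.95 (0.0401) and -0.32 (0.0693). Bgn (biglycan), named after its values were seen, rose by 0.74 (0.00762). Without Cdk1 Liv-/- whole liver replicate 3 the called count was 2, and 0 passed downward. Of all genes 4.83% were then called higher and 5.71% passed downward. Summed over the family, the level was 220, 225 and 242 FPKM in WT and 391, 422 and 404 in Cdk1 Liv-/- whole liver, with Dcn the most abundant.

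The cytoskeletal markers were Acta2, the smooth muscle actin of myofibroblasts, Tagln (transgelin), an actin-binding protein of smooth muscle, and Des (desmin), an intermediate filament protein of muscle and stellate cells. Acta2 measured 8.56, 11.1 and 18.4 FPKM in WT and 21.8, 19.8 and 11.6 in Cdk1 Liv-/- whole liver. The genotypes overlapped for Acta2: WT replicate 3 was high and Cdk1 Liv-/- replicate 3 low. The log2 fold change of Acta2 was 0.49 (SE 0.35, adjusted p = 0.315). It was 0.76 (0.150) when Cdk1 Liv-/- replicate 3, where Xist was high, was left out and 0.78 (0.129) without WT replicate 3, and under each of these omissions the remaining libraries did not overlap. Tagln measured 11.95, 11.9 and 14.6 FPKM in WT and 21.9, 20.7 and 15.4 in Cdk1 Liv-/- whole liver, with no overlap but a narrow gap. Des measured 2.29, 3.09 and 2.73 in WT and 4.76, 4.64 and 4.23 in Cdk1 Liv-/- whole liver, without overlap. The log2 fold change was 0.56 for Tagln (SE 0.16, adjusted p = 0.0378) and 0.66 for Des (SE 0.11, adjusted p = 0.00970).

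Tagln rested on single libraries: its adjusted p was 0.118 without WT whole liver replicate 1 and 0.110 without replicate 2. Over all alternatives of Tagln it ran from 0.0205 to 0.172, missing the threshold also in 1 fit over all 12 libraries (0.162) and after median-ratio scaling (0.172). Des missed it only in the fit over all 12 libraries (0.206, range 0.00600 to 0.206). Without Cdk1 Liv-/- whole liver replicate 3 the log2 fold changes were 0.72 for Tagln (0.0205) and 0.71 for Des (0.0275). The ratio of Acta2 to Tagln overlapped between the genotypes, at 0.716 to 1.26 in WT and 0.753 to 0.998 in Cdk1 Liv-/- whole liver. Acta2 to Lrat, myofibroblast actin against a retinoid enzyme of quiescent cells, also overlapped, at 1.499 to 3.497 and 1.522 to 3.489. Des to Lrat did not, at 0.401 to 0.518 in WT and 0.557 to 0.817 in Cdk1 Liv-/- whole liver, while Tagln to Lrat did, at 1.97 to 2.77 and 2.02 to 3.65.

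Serum response factor drives many smooth muscle genes by binding CArG boxes in their promoters, so the 250 bases before the start given for each promoter were searched on both strands. Of the 10 genes, 7 had an entry in the RefSeq promoter table for GRCm38.p6: Lrat, Des, Acta2, Hand2, Reln, Ngfr and Ecm1. Tagln, Lum and Dcn had none. The windows of Ecm1 and, in large part, Acta2 lie inside the span that RefSeq gives for the whole gene, which begins further upstream. No full CArG box was found in the 7 windows, and 1.47% of all 32841 windows of that length held one. A near form, in which 1 of the middle letters is not A or T, was found in Acta2, at 84 to 75 and at 34 to 25 bases before the start, and in Lrat, at 223 to 214. The near form was present in 7.24% of all windows. The stretches of 30 bases around those matches in Acta2, the gene with the steepest drop from whole liver to isolated hepatocytes, are shown 5′ to 3′ on the minus strand with the match in capitals, at chr19:34255438-34255467 and chr19:34255388-34255417.
Acta2 first match: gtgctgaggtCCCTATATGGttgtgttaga
Acta2 second match: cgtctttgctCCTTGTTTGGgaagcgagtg

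Of the genes that passed a genotype test, the windows of Des and Hand2 are shown whole, since they differ in composition and in common motifs and end where the gene begins. TATAAA (present in 12.4% of all windows), CCAAT (33.9%) and GGGCGG (32.7%) were searched on both strands, and capitals mark their matches. The Des window is chr1:75360042-75360291 on the plus strand, has 67.2% G and C, and held GGGCGG on the opposite strand at 87 to 82 and at 69 to 64 bases before the start. The Ecm1 window is chr3:95739570-95739819 on the minus strand, with TATAAA at 27 to 22 and GGGCGG at 42 to 37. The Hand2 window is chr8:57320733-57320982 on the plus strand and held 2 CCAAT and 2 GGGCGG matches. Reln had 6 GGGCGG matches and Ngfr 4, and Lrat had 1 of GGGCGG and 1 of CCAAT. A match is a description of the letters, and binding was not measured. The lack of a full CArG box in a window thus does not show that serum response factor does not bind there.
Des: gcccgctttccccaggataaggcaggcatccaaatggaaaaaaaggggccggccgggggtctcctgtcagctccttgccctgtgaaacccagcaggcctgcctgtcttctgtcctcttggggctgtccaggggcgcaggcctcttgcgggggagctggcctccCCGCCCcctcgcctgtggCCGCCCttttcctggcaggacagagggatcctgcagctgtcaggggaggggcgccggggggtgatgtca
Hand2: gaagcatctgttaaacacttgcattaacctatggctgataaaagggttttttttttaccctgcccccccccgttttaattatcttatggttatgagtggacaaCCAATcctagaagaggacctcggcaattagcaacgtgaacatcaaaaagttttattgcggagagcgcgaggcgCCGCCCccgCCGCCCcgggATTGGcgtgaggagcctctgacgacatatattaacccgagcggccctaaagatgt

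Des (ENSMUSG00000026208) lies at chr1:75360292-75368579, Acta2 (ENSMUSG00000035783) at chr19:34240336-34255585 and Tagln (ENSMUSG00000032085) at chr9:45929628-45936058. Ecm1 (ENSMUSG00000028108) lies at chr3:95734147-95739876 and Lrat (ENSMUSG00000028003) at chr3:82892582-82903974. Hand2 (ENSMUSG00000038193) lies at chr8:57320983-57324517, Reln (ENSMUSG00000042453) at chr5:21884454-22344705 and Ngfr (ENSMUSG00000000120) at chr11:95568818-95587698.

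The wider contractile list of 15 genes, which holds Acta2, Tagln and Des, had 7 genes that rose in whole liver, where 38.0% of all genes did, and 0 that fell by the adjusted p, and its median log2 fold change was 0.49. The largest values were 0.92 for Tpm1, a tropomyosin (adjusted p = 0.00156), and 0.76 for Flna, an actin cross-linker (0.00643). The lowest were -0.19 for Myh11, the myosin heavy chain of smooth muscle (0.777), and -0.074 for Synpo2 (0.796). Its summed level was 188, 201 and 224 FPKM in WT and 346, 334 and 296 in Cdk1 Liv-/- whole liver, without overlap, with Cald1 the most abundant. Cald1 was not depleted in isolated hepatocytes, where its mean was 58.2 FPKM in WT and 92.8 in Cdk1 Liv-/-, against 48.5 and 81.9 in whole liver. The sum thus does not follow contractile cells alone. Of serum response factor and the myocardin family, the 3 genes tested rose: Mkl1 by 0.73 (0.0167), Mkl2 by 0.42 (0.0179) and Srf by 0.29 (0.0722), with a median of 0.42. By limma 0 genes of either list were called, with or without Cdk1 Liv-/- whole liver replicate 3.

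The 18 activated myofibroblast genes had the highest median log2 fold change of the stellate-related lists in whole liver, 0.86. Of the 18 genes, 17 passed upward, where 38.0% of all genes did, and 8 were called higher, where 4.59% were. The list was chosen with earlier results of these data known, so its excess over all genes is not an independent result. The paper had already named Timp1, Col1a2 and Pdgfra, which are on the list, as raised in the same RNA sequencing. The largest rises were 4.62 for Timp1, an inhibitor of matrix metalloproteinases (adjusted p = 0.000416), and 2.51 for S100a6, a calcium-binding protein (9.68e-05). The smallest were 0.38 for Cdh11, a cadherin of fibroblasts (0.0207), and 0.39 for Fap, a fibroblast peptidase (0.0902). Acta2 was the gene of that list that did not pass. Timp1 was also called higher in isolated hepatocytes, as described further on, so its rise was not confined to whole liver. The summed level was 523, 527 and 682 FPKM in WT and 1102, 1569 and 994 in Cdk1 Liv-/- whole liver, without overlap. Col3a1 was the most abundant by the mean of all 12 libraries, with Sparc above it in WT whole liver. Without the library with Xist 9 were called and 15 passed, where 4.83% of all genes were called higher and 31.5% passed upward. Of the 11 portal fibroblast genes, none of which is among the 10 markers, 6 rose, where 38.0% of all genes did. In that list 3 were called and the median was 0.40. Entpd2, an ectonucleotidase of portal fibroblasts, rose by 1.58 (0.000785) and Dpt (dermatopontin) by 1.396 (0.00269), while Eln (elastin) stood at 0.040 (0.895) and Fbln2 at 0.088 (0.707). Portal sums were 66.0, 78.7 and 82.8 FPKM in WT and 114, 91.0 and 103 in Cdk1 Liv-/- whole liver, with Eln the most abundant.

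The retinoid enzyme Lrat, lecithin retinol acyltransferase, forms the retinyl esters stored by quiescent stellate cells. It measured 5.71, 6.04 and 5.27 FPKM in WT and 7.62, 5.68 and 7.60 in Cdk1 Liv-/- whole liver, and the genotypes overlapped through Cdk1 Liv-/- replicate 2. For Lrat the log2 fold change was 0.26 (SE 0.13, adjusted p = 0.155). It passed without Cdk1 Liv-/- whole liver replicate 2, at 0.40 (0.0241), within a range of 0.0241 to 0.774 over its alternatives, and stood at 0.20 (0.336) without replicate 3. Of 12 tested genes for retinoid handling, 2 rose and 1 fell (2 without Cdk1 Liv-/- whole liver replicate 3), and the median was 0.00385. Of all genes 38.0% rose, 7.53% fell (5.71% without that library) and 4.59% were called higher. Aldh1a1, a retinaldehyde dehydrogenase also made by hepatocytes, was called at 2.55 (0.00143), Aldh1a2 rose by 0.46 (0.0341) and Ttr, the carrier of retinol-binding protein in plasma, stood lowest at -0.69 (0.0618). Ttr was the most abundant gene of that list.

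Hand2, a transcription factor of quiescent stellate cells, measured 4.91, 5.98 and 6.18 FPKM in WT and 5.71, 5.38 and 7.97 in Cdk1 Liv-/- whole liver. Reln, a large secreted glycoprotein, measured 91.8, 87.7 and 78.8 in WT and 109, 63.5 and 124 in Cdk1 Liv-/- whole liver, where replicate 2 was the lowest of all 6. Ngfr, the p75 neurotrophin receptor, measured 3.78, 4.18 and 4.91 in WT and 5.05, 4.82 and 4.01 in Cdk1 Liv-/- whole liver. All 3 genes overlapped between the genotypes. Their log2 fold changes were 0.13 for Hand2 (adjusted p = 0.557), 0.14 for Reln (0.682) and 0.10 for Ngfr (0.564) on the deposited scale, and -0.070, -0.077 and -0.10 after median-ratio scaling. Without Cdk1 Liv-/- whole liver replicate 3 Hand2 stood at -0.029, Reln at -0.048 and Ngfr at 0.19 (0.298). Reln passed without Cdk1 Liv-/- whole liver replicate 2, at 0.43 (0.0314), within a range of 0.0314 to 0.92 over its alternatives.

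Around these genes, the list of 10 tested transcription factors of stellate cells had 5 that rose (3 without Cdk1 Liv-/- whole liver replicate 3), 1 called and a median of 0.25. Of all genes 38.0% rose (31.5% without that library), 7.53% fell and 4.59% were called higher. Wt1, also a factor of mesothelial cells, was called at 1.19 (0.00678), Pparg rose by 0.62 (0.0524), and Tcf21 and Rarb stood at -0.051 (0.857) and -0.023 (0.889). The most abundant was Nr1h4, the bile acid receptor of hepatocytes, and Nkx3-2 was listed at 0 in all libraries. Of 3 tested genes of reelin signalling, the receptor Vldlr was called at 1.12 (0.042) and the adaptor Dab1 rose by 0.62 (0.0304), with Reln itself the most abundant. Among 7 tested neurotrophin genes 3 rose and 2 were called, among them the ligand Ntf3 at 1.16 (0.0677), while the receptor Ntrk3 stood at -0.063 (0.631) and Sort1 at -0.21 (0.2). Their median was 0.20. Ntrk2 was the most abundant by the mean of all 12 libraries, but not in either whole-liver group. The 20 stellate cell genes, 7 of which are among the 10 markers, split: 7 rose, 3 fell and 1 was called higher. The shares of all genes were 38.0%, 7.53% and 4.59%, so the counts that rose and were called were near them. The median of the list was 0.19, close to that of all genes. When Cdk1 Liv-/- whole liver replicate 3 was left out 4 fell and 1 of them was called lower. Of all genes 5.71% then fell and 0.984% were called lower. Cygb (cytoglobin) was called at 1.62 (0.00722) and Adamtsl2 rose by 0.89 (0.0178), whereas Hhip, an inhibitor of hedgehog ligands, fell at -0.91 (0.031) and the receptor Vipr1 at -0.67 (0.0746). Summed, the stellate list reached 444, 446 and 462 FPKM in WT and 560, 509 and 594 in Cdk1 Liv-/- whole liver, without overlap, with Dcn the most abundant.

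**Figure D3:**
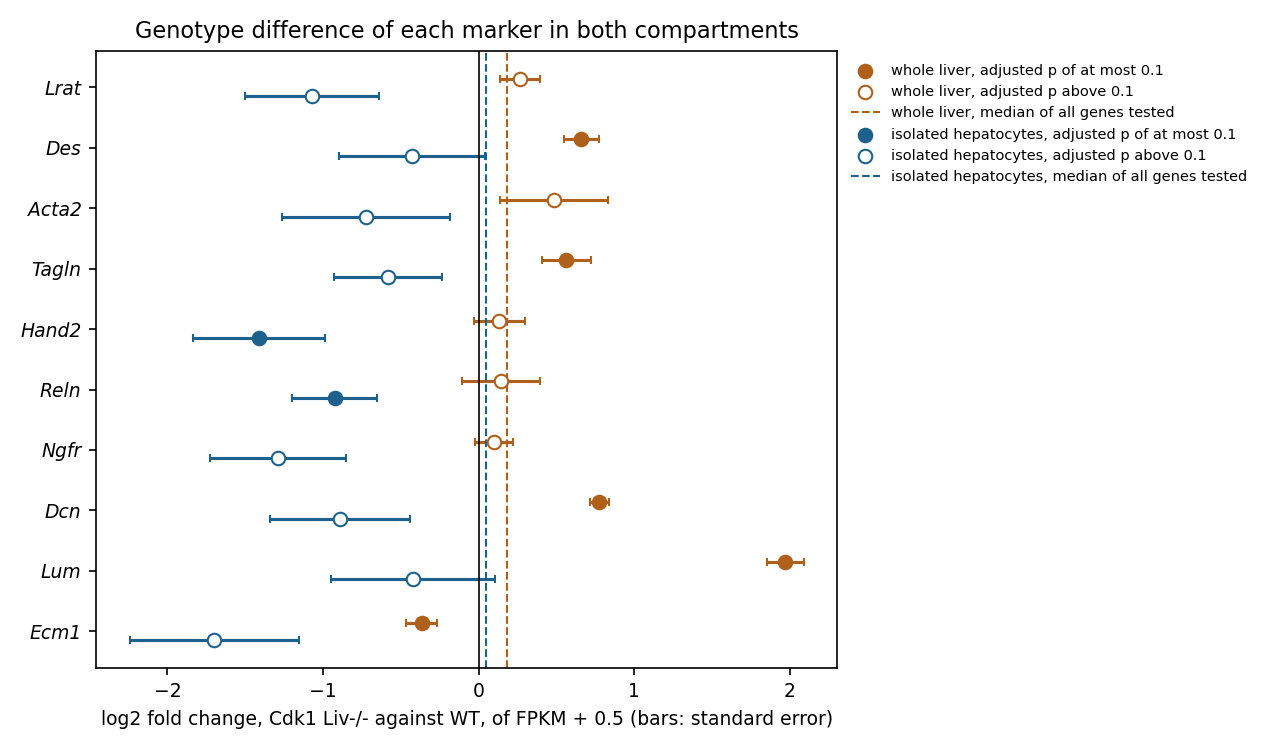
Log2 fold change of Cdk1 Liv-/- against WT for each of the 10 genes (horizontal axis, log2 units, bars for the standard error) in whole liver and isolated hepatocytes, with filled points for an adjusted p of at most 0.1 and dashed lines for the median of all genes. All 10 lie below 0 in isolated hepatocytes, and in whole liver the values run from -0.37 for Ecm1 to 1.97 for Lum, with Hand2, Reln and Ngfr falling below 0 after median-ratio scaling.

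Scaling moved the whole-liver values as a block. Dividing FPKM by median-ratio size factors shifted the median of all genes by -0.17, and the genes called changed from 798 higher and 174 lower to 513 higher and 242 lower. On that scale Lum stood at 1.75 (adjusted p = 0.000935), Dcn at 0.55 (0.00523), Des at 0.46 (0.0267) and Ecm1 at -0.59 (0.0174), all past the threshold. Acta2 at 0.27, Tagln at 0.35 and Lrat at 0.059 did not pass. The same scaling moved the median of all genes by 0.21 in the comparison of Cdk1 Liv-/- hepatocytes with whole liver, where the calls changed from 262 higher and 1644 lower to 467 and 1227. For the interaction described further on it moved the median by 0.12, and the genes that passed from 409 higher and 1303 lower to 548 and 492.

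Markers of other cells also differed between the whole livers, and their part in the results above was not tested. Of all genes 38.0% passed upward and 7.53% downward, and 4.59% were called higher. Of 7 tested cholangiocyte genes 5 rose and 4 were called, with a median of 1.26 and Cldn7, a tight junction claudin, highest at 2.67 (0.00234). Their sum was 17.2, 19.9 and 16.3 FPKM in WT and 47.3, 28.4 and 40.6 in Cdk1 Liv-/- whole liver. All 6 mesothelial genes rose and 3 were called, with a median of 1.03 and Msln (mesothelin) highest at 1.67 (0.00735). Those sums were 2.26, 1.05 and 0.74 in WT and 5.62, 7.74 and 6.24 in Cdk1 Liv-/-. Of 8 monocyte and neutrophil genes 6 rose and 4 were called, with a median of 1.34 and Ccr2, the receptor for the chemokine Ccl2, highest at 2.26 (0.00112). Their sums were 66.3, 42.3 and 63.4 in WT and 86.8, 293 and 231 in Cdk1 Liv-/-, with S100a9 the most abundant. Without Cdk1 Liv-/- whole liver replicate 3 the called counts were 3 each for cholangiocytes, mesothelial cells and monocytes with neutrophils, and 3, 6 and 4 genes rose. Of all genes 4.83% were then called higher and 31.5% rose.

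Of 10 Kupffer cell genes 5 rose, where 38.0% of all genes did, and 4 without that library, where 31.5% did. Their median was 0.30, with the secreted scavenger protein Cd5l highest at 0.92 (0.0168). Kupffer sums were 458, 515 and 518 FPKM in WT and 601, 809 and 635 in Cdk1 Liv-/- whole liver. Of 10 sinusoidal endothelial genes 2 rose (0 without Cdk1 Liv-/- whole liver replicate 3), with a median of 0.080, and their sums overlapped, at 162, 188 and 229 against 205, 260 and 210. Of 8 hepatocyte genes 4 fell, where 7.53% of all genes did. Their median was -0.62, with Cps1, the first enzyme of the urea cycle, at -0.95 (0.00319). Hepatocyte sums lay between 84761 and 87010 FPKM in WT and between 60191 and 67621 in Cdk1 Liv-/-, with Alb the most abundant. By limma 0 genes of these 3 lists were called. Of the remaining lists, 2 of 7 erythroid genes fell (1 without that library, median 0.21, with Alas2 at -0.55), 1 of 6 tested skeletal muscle genes rose (median 0.053, Tnni2 at 0.39) and 1 of 3 tested Schwann cell genes rose (median -0.029, Mbp at 0.69). Erythroid sums overlapped, at 1103, 1229 and 2170 FPKM in WT and 1165, 1768 and 1456 in Cdk1 Liv-/-, with Hbb-bs the most abundant.

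**Figure D4:**
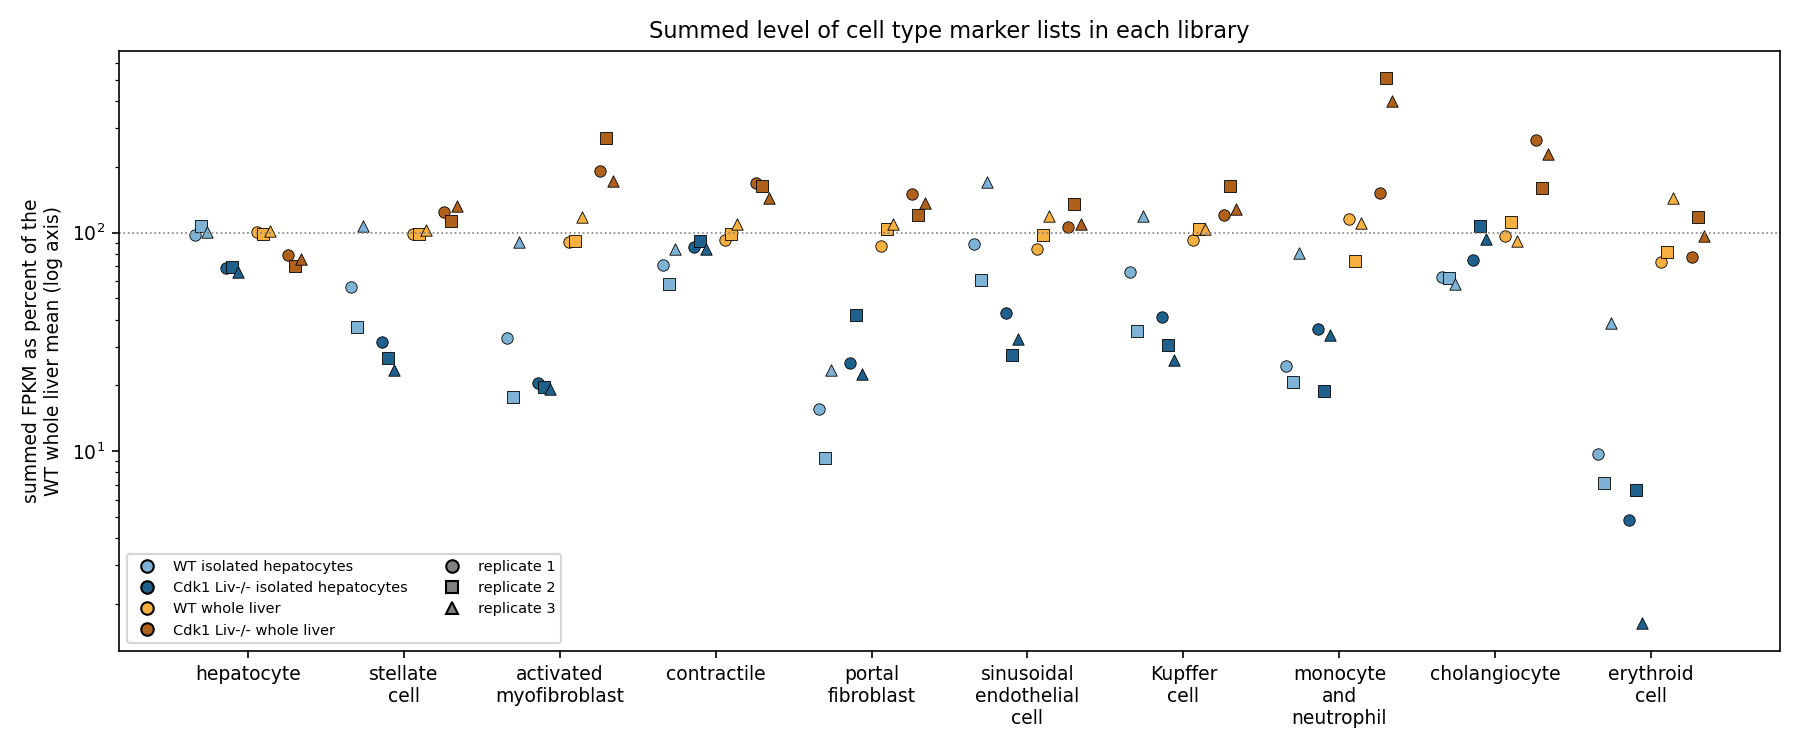
Summed FPKM of 10 marker lists in each library as a percentage of the WT whole-liver mean (log axis), with points for libraries by group. In isolated hepatocytes the stellate, sinusoidal endothelial and Kupffer sums are highest in WT replicate 3, and in whole liver the activated myofibroblast sum is higher in every Cdk1 Liv-/- library than in every WT library.

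In isolated hepatocytes all 10 genes had negative log2 fold changes for Cdk1 Liv-/- against WT, with a median of -0.91 where that of all genes was 0.049. Ecm1 was on the lower side in both compartments. Hand2 fell 2.66-fold and Reln 1.90-fold, the only ones of the 10 to pass the test. Hand2 alone was called lower, where 2.17% of all genes were, and the 2 that passed compare with 6.61% of all genes passing downward. In 4 genes, Hand2, Reln, Ngfr and Ecm1, every Cdk1 Liv-/- library lay below every WT library, as in 13.4% of all genes. This comparison rested on a WT group with a wide spread, since replicate 3 was the highest and replicate 2 the lowest of the WT hepatocytes for all 10 genes.

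Hand2 measured 2.81, 1.69 and 6.10 FPKM in WT hepatocytes and 1.30, 0.69 and 0.69 in Cdk1 Liv-/- hepatocytes. Its log2 fold change was -1.41 (SE 0.42, adjusted p = 0.0880). All 3 Cdk1 Liv-/- libraries were low, and WT replicate 3 was at the level of whole liver. The call was lost without WT isolated hepatocytes replicate 1 (adjusted p = 0.178) or replicate 3 (-0.98, 0.123), and without Cdk1 Liv-/- isolated hepatocytes replicate 1 (0.126), replicate 2 (0.204) or replicate 3 (0.216). Over its alternatives the adjusted p ran from 0.0129 to 0.216. A gene antisense to Hand2 (ENSMUSG00000100510), chosen for its position, measured 4.73, 2.40 and 7.14 FPKM in WT hepatocytes and 0.37, 0.41 and 0.71 in Cdk1 Liv-/- hepatocytes. Whether reads were counted by strand is not stated. In whole liver the antisense gene measured 7.41, 8.22 and 6.84 in WT and 4.19, 5.33 and 5.45 in Cdk1 Liv-/-. It was thus lower in every Cdk1 Liv-/- library than in every WT library of the same compartment, which Hand2 was in hepatocytes only.

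Reln, the other gene that passed, measured 51.4, 47.6 and 85.0 FPKM in WT hepatocytes and 33.3, 38.0 and 23.4 in Cdk1 Liv-/- hepatocytes. The groups did not overlap, and the log2 fold change was -0.93 (SE 0.27, adjusted p = 0.0832). It missed the threshold without WT isolated hepatocytes replicate 1 (0.149) or 3 (0.142) and without Cdk1 Liv-/- isolated hepatocytes replicate 1 (0.154), 2 (0.112) or 3 (0.199), within a range of 0.0340 to 0.199 over all alternatives. Ngfr measured 2.15, 1.16 and 4.86 FPKM in WT and 0.86, 0.80 and 0.41 in Cdk1 Liv-/- hepatocytes. It did not overlap either, at a log2 fold change of -1.29 (SE 0.44, adjusted p = 0.118). Lrat measured 4.86, 1.53 and 5.77 in WT and 1.32, 1.64 and 1.39 in Cdk1 Liv-/- hepatocytes, where WT replicate 2 fell among the Cdk1 Liv-/- libraries. Its log2 fold change was -1.07 (SE 0.43, adjusted p = 0.165).

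Of the matrix genes, Ecm1 measured 46.1, 28.7 and 117 FPKM in WT and 25.2, 11.3 and 14.9 in Cdk1 Liv-/- hepatocytes. The groups did not overlap, but the test missed the threshold at a log2 fold change of -1.70 (SE 0.54, adjusted p = 0.102). Dcn measured 72.4, 35.1 and 131 in WT and 43.4, 33.0 and 35.8 in Cdk1 Liv-/- hepatocytes, and overlapped (-0.89, 0.248). Lum measured 4.67, 1.92 and 10.4 in WT and 3.13, 4.27 and 2.78 in Cdk1 Liv-/- hepatocytes, with the Cdk1 Liv-/- libraries inside the WT range (-0.42, 0.640). Without WT isolated hepatocytes replicate 3 Lum turned to 0.12. The ratio of Ecm1 to Dcn did not overlap between these groups, at 0.636 to 0.891 in WT and 0.341 to 0.582 in Cdk1 Liv-/- hepatocytes, as in whole liver. Lum to Dcn overlapped, at 0.0548 to 0.0794 and 0.0722 to 0.1296.

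The cytoskeletal genes were low in both hepatocyte groups and overlapped. Acta2 measured 0.75, 0.36 and 2.97 FPKM in WT and 0.22, 0.87 and 0.34 in Cdk1 Liv-/- hepatocytes (log2 fold change -0.72, adjusted p = 0.427). Tagln measured 3.23, 2.24 and 6.14 in WT and 1.81, 2.84 and 2.12 in Cdk1 Liv-/- hepatocytes (-0.58, 0.318). Des measured 1.08, 0.44 and 2.40 in WT and 1.30, 0.67 and 0.34 in Cdk1 Liv-/- hepatocytes (-0.43, 0.589). When WT isolated hepatocytes replicate 3 was left out the log2 fold changes were -0.14 for Acta2, -0.23 for Tagln and -0.011 for Des. Des was highest, among the Cdk1 Liv-/- hepatocytes, in replicate 1, the library with a skeletal muscle sum of 25.9 FPKM, and stood at -0.71 (0.413) without it, within a range of -0.82 to -0.011. For these genes the lowest libraries held about 17, 112 and 35 reads.

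The count of called genes in isolated hepatocytes turned on single libraries. It was 1 with all libraries and 0 without WT isolated hepatocytes replicate 1, WT replicate 3, or any 1 of Cdk1 Liv-/- isolated hepatocytes replicates 1, 2 and 3. Of all genes 2.17% were called lower with all libraries and 0.966%, 1.52%, 1.44%, 1.15% and 1.01% under those omissions. Without WT isolated hepatocytes replicate 2 it was 6, where 3.41% of all genes were called lower: Lrat, Hand2, Reln, Ngfr, Dcn and Ecm1. Without WT replicate 3 the median of the 10 genes was -0.55, and without replicate 2 it was -1.26. At an unadjusted p under 0.05 limma gave 5 of the 10 and 28.4% of all genes. The 2-group test of the study called 0, where 0.771% of all genes were called lower. That test was changed here: it used the Benjamini-Hochberg adjusted p over the 17386 genes and the fold threshold. The paper used q-values and names only a threshold on them.

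Sinusoidal endothelial markers were lower in the Cdk1 Liv-/- hepatocytes as well, and the part of this and the other cell types in the result was not tested. Of 10 sinusoidal endothelial genes 9 were called lower, where 2.17% of all genes were. Their median was -1.61, with values from -2.44 for Lyve1, a hyaluronan receptor (0.0284), to -1.12 for Clec4g, a lectin of these cells (0.0975). Their summed level was 171, 117 and 330 FPKM in WT and 82.3, 52.9 and 62.5 in Cdk1 Liv-/- hepatocytes, without overlap and with 0 of the 10 genes at 0. Stab1 was the most abundant by the mean of all 12 libraries, with Fcgr2b and Clec4g above it in both hepatocyte groups. Of 10 Kupffer cell genes 1 was called lower, Adgre1 at -1.40 (0.079), with a median of -1.09. The Kupffer sums were 327, 176 and 594 in WT and 203, 152 and 130 in Cdk1 Liv-/- hepatocytes, which overlapped. Cd5l was the most abundant by the mean of all 12 libraries, with Clec4f above it in WT hepatocytes and WT whole liver. Of the 20 stellate cell genes 7 were called lower and 10 passed downward, with a median of -1.02. Of all genes 2.17% were called lower and 6.61% passed downward. The stellate sums were 254, 166 and 481 in WT and 143, 120 and 106 in Cdk1 Liv-/- hepatocytes. For all 3 lists WT replicate 3 was highest. Without it 7 endothelial, 0 Kupffer and 0 stellate genes were called, and without WT isolated hepatocytes replicate 2 the counts were 10, 10 and 14. Of all genes 1.52% and 3.41% were called lower under those omissions.

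In these hepatocytes by limma 0 of the 15 contractile genes were called (median -0.15), and 2 passed upward, among them Cald1, an actin-binding protein, at 0.67 (0.0202). Of all genes 4.20% were called higher, 2.17% were called lower and 12.1% passed upward. The contractile sums were 144, 119 and 171 FPKM in WT and 175, 186 and 171 in Cdk1 Liv-/- hepatocytes. Of 18 activated myofibroblast genes 1 was called, Timp1 at 4.09 (0.0011), against a median of -0.50. Their sums overlapped, at 190, 102 and 525 in WT and 118, 113 and 111 in Cdk1 Liv-/- hepatocytes. Portal fibroblast genes had 0 called (median -0.037), with sums of 11.8, 7.05 and 17.7 in WT and 19.1, 31.9 and 17.1 in Cdk1 Liv-/-. Podn was the 1 proteoglycan called lower, at -1.08 (0.0462), with a family median of -0.45. Without WT isolated hepatocytes replicate 2 the lists had 5 activated myofibroblast and 2 proteoglycan genes called lower, and 1 each of the contractile, retinoid, reelin and neurotrophin lists. Of all genes 3.41% were then called lower.

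Of the stellate transcription factors 3 of 10 were called lower, Tcf21 (-2.08, 0.0311), Hand2 and Foxf1, the last named after its values were seen, with a median of -0.70. Without WT isolated hepatocytes replicate 3 the count was 1, and the retinoid and hepatocyte lists had 2 called lower each. Of all genes 2.17% were called lower and 4.20% higher with all libraries, and 1.52% lower without that replicate. Among retinoid genes Aldh1a1 was called higher at 3.26 (0.00127) and the median was -0.13. Vldlr was the 1 reelin gene called, higher at 1.15 (0.0355), with a median of -0.024, and Ntrk2 the 1 neurotrophin gene, higher at 1.56 (0.0208), with a median of 0.48. Serum response factor and its partners had 0 called and a median of 0.44. Of the hepatocyte list Apoa1 was called lower at -1.12 (0.0293), with a median of -0.44, and the sums lay between 57055 and 60123 FPKM in Cdk1 Liv-/- and between 83518.5 and 91982 in WT. Cholangiocyte genes had 2 called higher, Cldn7 at 2.28 (0.016) and Sox9 at 1.38 (0.00694), and a median of 0.72. Monocyte and neutrophil genes had 1 called, Ccr2 at 1.18 (0.0109), and a median of -0.23. Erythroid genes had 1 called lower (0 without WT isolated hepatocytes replicate 2 or 3) and a median of -1.59, with sums of 146, 107 and 581 in WT and 72.2, 99.6 and 24.4 in Cdk1 Liv-/-.

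Mesothelial, skeletal muscle and Schwann cell genes had 0 called in isolated hepatocytes, with medians of 0.061, 0.97 and -0.14. Mesothelial sums were at most 0.88 FPKM in every hepatocyte library. The skeletal muscle sum was 25.9 FPKM in Cdk1 Liv-/- isolated hepatocytes replicate 1, and at most 2.10 in the other 11 libraries. Mylpf was the most abundant of that list by the mean of all 12, and Acta1, at 7.40 FPKM, was above it in that replicate 1. Schwann cell sums lay between 0.87 and 2.29 in all 12 libraries.

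Comparing compartments shows how far the 10 markers were retained in the isolated cells. In WT all 10 had lower means in hepatocytes than in whole liver, and the retained share differed by gene. Acta2 kept 10.7% of its whole-liver mean, Tagln 30.2%, Lum 42.4% and Des 48.3%. Hand2, Dcn, Ngfr and Ecm1 kept between 62.1% and 65.8%, and Reln and Lrat 71.2% and 71.4%. In Cdk1 Liv-/- the shares were smaller for every gene, from 2.69% for Acta2 and 6.27% for Lum to 20.8% for Lrat, 22.7% for Ecm1 and 31.9% for Reln. Acta2 was thus the least retained in both genotypes, and Reln among the most retained.

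These shares rested on single libraries, by omissions chosen after seeing the data. When WT isolated hepatocytes replicate 3 was left out, the WT shares were 4.37% for Acta2, 21.3% for Tagln, 24.7% for Lum and 28.1% for Des, between 38.5% and 42.2% for Ecm1, Ngfr, Hand2 and Dcn, and 56.3% and 57.5% for Lrat and Reln. In Cdk1 Liv-/- Acta2 came to 1.58% without isolated hepatocytes replicate 2 and Des to 11.1% without replicate 1. The ratio of Acta2 to Lrat lay between 0.154 and 0.515 in WT and between 0.167 and 0.530 in Cdk1 Liv-/- hepatocytes, below every whole liver. Acta2 to Tagln, at 0.161 to 0.484 and 0.122 to 0.306, was also below every whole liver.

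**Figure D5:**
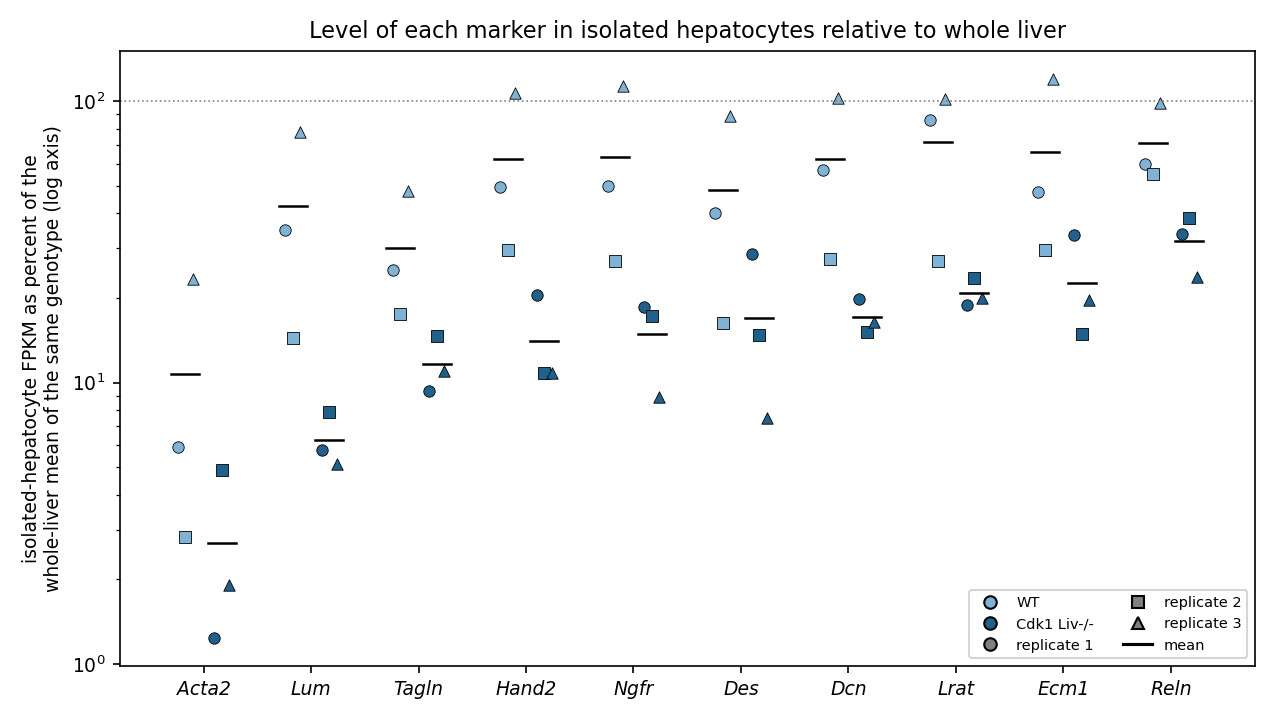
FPKM of each isolated hepatocyte library as a percentage of the whole-liver mean of the same genotype (log axis), for each of the 10 genes, with a line for the mean and a dotted line at 100. Means run from 10.7 for Acta2 to 71.4 for Lrat in WT and from 2.69 for Acta2 to 31.9 for Reln in Cdk1 Liv-/-.

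In WT by limma 0 of the 10 genes were called lower in hepatocytes, where 0.426% of all genes were. By limma 3 had an unadjusted p under 0.05, where 18.8% of all genes did. The 2-group test of the study, with the Benjamini-Hochberg adjusted p in place of the q-value and the fold threshold added, called 0. It called only 0.0173% of all genes lower, so its count of 0 does not set the markers apart. In 3 genes, Acta2, Tagln and Lum, every hepatocyte library lay below every whole-liver library, as in 20.7% of all genes. The log2 fold change was -3.02 for Acta2 (SE 0.56, adjusted p = 0.101), -1.70 for Tagln (SE 0.32, 0.106) and -1.43 for Lum (SE 0.52, 0.229), and ran from -0.97 for Des to -0.53 for Reln in the rest, with a median of -0.86 over the 10 and -0.10 over all genes. WT isolated hepatocytes replicate 3 decided the count: without it 8 of the 10 genes were called lower, where 2.71% of all genes were, all but Lrat and Reln (Reln passed on adjusted p alone, 0.0315), with adjusted p from 0.0289 for Tagln to 0.0687 for Dcn and a median of -1.36. Acta2 then stood at -3.60 (0.0315), within a range of 0.0167 to 0.324 over its alternatives.

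The lists around the markers also turned on WT isolated hepatocytes replicate 3. With all libraries 0.426% of all genes were called lower. Of 20 stellate genes 1 was called lower, Adamtsl2 at -2.55 (0.084), with a median of -0.68. The counts were 2 of 18 for activated myofibroblasts, 5 of 11 for portal fibroblasts, led by Mfap4 at -3.42 (0.0461) and Dpt at -3.19 (0.0279), 3 of 9 for proteoglycans and, by limma, 0 of 15 for contractile genes. Without that library they were 10, 13, 8, 7 and 8, where 2.71% of all genes were called lower. Sinusoidal endothelial and Kupffer genes had 0 called, with medians of 0.044 and -0.53, and 1 and 4 without that library. Erythroid genes had 0 called at a median of -2.87, and 4 without it. The hepatocyte list stood at a median of 0.021 with 0 called.

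In Cdk1 Liv-/- all 10 genes were called lower in hepatocytes than in whole liver, where 9.46% of all genes were. In all 10 every hepatocyte library lay below every whole-liver library, as in 40.3% of all genes. Acta2 fell 18.8-fold (log2 fold change -4.23, SE 0.33, adjusted p = 0.000754) and Lum 14.1-fold (-3.82, SE 0.18, 0.000292). As a plain ratio of mean FPKM, without the 0.5 added in the test, Acta2 fell 37.2-fold. Tagln fell 7.20-fold, Dcn 5.81-fold, Hand2 4.95-fold, Ecm1 4.53-fold, Ngfr 4.36-fold, Des 4.17-fold and Lrat 3.81-fold. Reln, with the smallest drop, fell 3.04-fold (-1.60, SE 0.29, 0.00921). The median was -2.24 over the 10 genes and -0.19 over all genes. The 10 calls held under every alternative run, including the omission of Cdk1 Liv-/- whole liver replicate 3.

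Markers of several cell types fell together in this comparison, where 9.46% of all genes were called lower. Of 20 stellate genes 17 were called lower (median -2.06), of 18 activated myofibroblast genes 16 (-2.93), of 11 portal fibroblast genes 9 (-1.75), of 15 contractile genes 7 (-0.99) and of 9 proteoglycans 7 (-1.68). All 10 sinusoidal endothelial genes were called lower (-1.79), all 10 Kupffer genes (-1.96), all 7 erythroid genes (-4.59), 7 of 8 monocyte and neutrophil genes (-1.81), 5 of 7 cholangiocyte genes (-1.36) and 5 of 6 mesothelial genes (-1.31). The transcription factors had 6 of 10 called lower, and of the hepatocyte list 1 was called higher, Cps1 at 1.70 (0.00109). Without Cdk1 Liv-/- whole liver replicate 3 the stellate, endothelial and Kupffer counts were 17, 10 and 10, the erythroid and the monocyte and neutrophil counts 6 each and the cholangiocyte count 4. Of all genes 9.86% were then called lower.

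Whether the genotype effect differed between the compartments was tested as an interaction, the hepatocyte effect minus the whole-liver effect, in 1 fit over the 12 libraries. All 10 genes had negative values, from -1.07 for Reln to -2.39 for Lum, with a median of -1.33 where all genes had -0.11. Lum (-2.39, SE 0.58, adjusted p = 0.0590), Dcn (-1.67, SE 0.49, 0.0841) and Hand2 (-1.54, SE 0.48, 0.0948) passed, 3 of 10, where 7.49% of all genes passed downward. For Lum and Dcn a rise in whole liver stood beside lower means in hepatocytes (Lum turned to 0.12 there without WT isolated hepatocytes replicate 3), and for Hand2 a fall in hepatocytes stood beside overlapping values in whole liver. Tagln (-1.15, 0.116), Ngfr (-1.39, 0.118) and Lrat (-1.34, 0.124) came next, and Reln (0.135), Ecm1 (0.204), Des (0.229) and Acta2 (0.314) followed. The interaction shares its samples with the comparisons above.

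The number that passed changed with single libraries, for the 10 genes and for all genes. The count was 9, all but Acta2, without WT isolated hepatocytes replicate 2, where 12.8% of all genes passed downward, 2 without WT isolated hepatocytes replicate 3 or Cdk1 Liv-/- isolated hepatocytes replicate 1, and 1 without WT isolated hepatocytes replicate 1, Cdk1 Liv-/- isolated hepatocytes replicate 2, or Cdk1 Liv-/- whole liver replicate 1 or 3. It was 0 without Cdk1 Liv-/- isolated hepatocytes replicate 3, WT whole liver replicate 1, 2 or 3, or Cdk1 Liv-/- whole liver replicate 2. For the counts of 2 the shares of all genes passing downward were 3.99% and 4.61%, for the counts of 1 they were 3.64%, 5.99%, 5.38% and 3.01%, and for the counts of 0 they were 3.29%, 0.247%, 1.61%, 1.898% and 1.53%, all below the 7.49% with all libraries. Lum kept an adjusted p of at most 0.1 except without those last 5 libraries, where it was 0.100383, 0.142, 0.116, 0.106 and 0.121. Leaving out both libraries that stand apart, an alternative chosen after seeing the data, left Lum (-1.88, 0.0904) as the 1 gene past the threshold, where 1.93% of all genes passed downward, with Dcn at -1.19 (0.143) and Hand2 at -0.95 (0.183). Over all 20 alternatives the adjusted p ran from 0.00555 to 0.142 for Lum, 0.00564 to 0.184 for Dcn and 0.0214 to 0.204 for Hand2.

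In the interaction, where 7.49% of all genes passed downward, 8 of 20 stellate genes did (median -1.33), led by Cygb (-2.12, 0.0805) and Pth1r, a parathyroid hormone receptor (-2.04, 0.0622). So did 10 of 18 activated myofibroblast genes (-1.37), 8 of 10 sinusoidal endothelial genes (-1.73), 7 of 10 stellate transcription factors (-1.08), 4 of 6 mesothelial genes (-1.03), and 3 each of the portal fibroblast, proteoglycan, Kupffer and monocyte and neutrophil lists. Without both libraries that stand apart 1.93% of all genes passed downward. The stellate count was then 2, the activated myofibroblast count 4, the endothelial count 3 and the Kupffer count 0. The transcription factor count was then 1, the mesothelial and proteoglycan counts 2 each, and the portal fibroblast and the monocyte and neutrophil counts 1 each. The part of these other cell types in the interaction of the 10 genes was not tested.

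As a description over 12 libraries of 4 groups, with no test, Pearson r of log2 FPKM between pairs of the 10 ran from 0.677 for Lum and Ecm1 to 0.994 for Acta2 and Tagln. The libraries share compartment and genotype, and correlations within a group were not computed. Among 12282 genes with a mean of at least 1 FPKM, Tagln was the closest to Acta2, and Mfap4 (0.984) and Fbln2 (0.977), microfibril and matrix genes on the portal fibroblast list, came next. Tagln was followed by Rbm22 (0.990) and Loxl1 (0.986). Dcn was nearest to its relative Bgn (0.992), then Wls (0.991) and Igfbp7 (0.991), and Lum to Pmepa1 (0.990), Olfml3 (0.989) and Ctsk (0.989). Igfbp7 was also nearest to Des (0.982), with Tmem50b and Tmem173 at 0.9804 and 0.9803.

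Hand2, Ecm1, Reln, Lrat and Ngfr had other neighbours. Hand2 was nearest to Tmem47 (0.986), Colec11 (0.986), a collectin of stellate cells, and Ripply3 (0.985), and Ecm1 to Fpr1 (0.990), Colec11 (0.979) and Mamdc2 (0.979). Reln was nearest to Rspo3 (0.962), a Wnt agonist on the stellate list, then Aard (0.959) and Fendrr (0.958), and Lrat to Nr1h5 (0.979), Tnfrsf11b (0.979) and Arvcf (0.975). Ngfr was nearest to Timd4 (0.991), a gene of the Kupffer list, then Mtss1l (0.990) and Cers4 (0.989). Reln had the lowest top correlation of the 10 genes.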

How the data were processed

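PolyA RNA of 12 mouse liver libraries (4 groups of 3) was sequenced as single 75-base reads. Per the labels, the authors aligned reads with STAR and quantified them with RSEM 1.2.31 against mm10. Values are FPKM as deposited by the authors, not normalized between libraries. The 10 markers and 19 gene lists were chosen with earlier results of these data known. Genes with a mean of at least 0.1 FPKM were tested on log2 FPKM with 0.5 added, using limma 3.58.1 in R 4.3.3 (moderated, trend over level, two-sided, Benjamini-Hochberg over all genes tested). Called meant adjusted p up to 0.1 with a change of 2-fold or more; the interaction needed the adjusted p alone. Every marker is named; of each list, its counts, its most abundant gene by the mean of 12 libraries and its extremes. Python 3.11.15, numpy 2.4.6, pandas 2.3.3 and matplotlib 3.10.9 did the rest. Alternatives were other pseudocounts, filters, scalings and tests, a replicate block and leaving out each library. List counts and shares of all genes without single libraries were chosen after seeing the data. No library or gene list was dropped.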

Additional observations from a re-analysis of the deposited data

Results flagged for a closer look

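The genotype effect differed between isolated hepatocytes and whole liver, by the interaction test, for 3 of the 10 markers: Lum (-2.39 on the log2 scale), Dcn (-1.67) and Hand2 (-1.54). Each value is the effect in hepatocytes minus that in whole liver. Of all genes 7.49% passed in that direction. Over 20 alternatives Hand2 lost the call in 15, Dcn in 14 and Lum in 5.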

How the results depend on the processing

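The test of each marker gene was recomputed under 16 alternatives in each comparison, or 20 for the interaction. Counts of the gene lists were rerun with selected libraries left out. Of the log2 fold changes of single genes, 755 kept their direction and their call (adjusted p with fold threshold, or adjusted p alone for the interaction), 43 lost the call, 36 gained it and 6 reversed. The reversed log2 fold changes were, in whole liver, Hand2 -0.070, Reln -0.077 and Ngfr -0.10 after median-ratio scaling, Hand2 -0.029 and Reln -0.048 without Cdk1 Liv-/- whole liver replicate 3 (highest without 1 library 0.23 and 0.43), and, in isolated hepatocytes, Lum 0.12 without WT replicate 3 (lowest -0.97). The cause was not tested.

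In whole liver 1 gene was called (4.59% of all genes called higher), and 5 with no fold threshold (38.0% passing upward and 7.53% downward). In isolated hepatocytes the count of 1 (2.17% of all genes called lower) became 0 with a pseudocount of 1 (1.43%), 0 with no filter (0.589%), 3 with a filter of 1 FPKM (3.20%), 2 after rescaling to the same sum (2.16%), 4 after median-ratio scaling (2.68%), 2 with no fold threshold (6.61%), 0 by the 2-group test (0.771%), 4 in 1 fit over all 12 libraries (2.75%) and 0 with the replicate block (1.13%); leaving out 1 library gave 0 to 6 (0.966% to 3.41%). In WT hepatocytes against whole liver the count of 0 (0.426%) became 1 with a pseudocount of 1 (0.247%) and 2 in the fit over all 12 (0.828%), and 0 to 8 leaving out 1 library (0% to 2.71%). In Cdk1 Liv-/- it was 10 throughout (5.66% to 35.9%). The interaction count of 3 (7.49% passing downward) became 2 with a pseudocount of 1 (7.79%). It became 1 with no filter (2.42%), 1 after median-ratio scaling (2.83%) and 1 with the replicate block (2.62%). Without both libraries that stand apart it was 1 (1.93%), and leaving out 1 library gave 0 to 9 (0.247% to 12.8%). The block treats equal replicate numbers as sets, which the labels do not state; deviations of such libraries from their group means correlated between -0.317 and 0.239.

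With 3 libraries a group, and 2 where 1 was left out, the spread is poorly known. Acta2, Des, Hand2 and Ngfr rested on few reads in isolated hepatocytes.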
